A study of Mus musculus with 6 samples.

Results

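LIM-domain proteins outside the Fhl family were followed here, the wider relatives of FHL2, the adaptor protein whose gene was disrupted in the knockout cells. The members were 40 listed genes, chosen by name and known domain with earlier results of these data known, and all 40 were measured among the 18193 genes tested. RNA was hybridised to 6 one-colour arrays, 1 array for each clone of mouse embryonic fibroblasts (MEFs) that had become immortal in culture on its own, with no oncogene named in the labels. The groups were 3 FHL2-/- (knockout) clones, E, H and J, from FHL2-/- mice, and 3 WT (wild type) clones, E, F and I, from WT mice. The labels give no other allele, no treatment, no age, no strain and no statement that each clone was started from its own embryo, so p-values measure the spread between clones. Each clone is a line of its own, and the letter E, used in both genotypes, does not pair 2 clones.

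A LIM domain is a pair of zinc fingers that binds other proteins. Proteins that carry it tie integrin adhesions to actin filaments, or hold transcription factors together in the nucleus, and several move between these places. In fibroblasts many of them sit in focal adhesions and along stress fibres, where tension brings them to strained actin. The members were grouped as Crip/Csrp proteins, Lmo nuclear adaptors, PDZ-LIM proteins, the zyxin family, PET-LIM proteins (testin and prickle), paxillins, Pinch proteins, LIM kinases and actin-binding proteins.

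Values are log2 intensities, taken for each gene from its probe set of highest mean, and values per clone are given in the order E, H, J for knockout and E, F, I for wild type. Differences, in log2 units, are knockout minus wild type and carry the standard error (SE) that limma gives, n = 3 clones per genotype unless a clone is left out. A gene is said to rise or fall where limma's p, adjusted over all 18193 genes, lay under 0.05. The few arrays limit precision, and the members spread more between clones than genes at large. Their SE had a median of 0.261, against 0.141 over all genes. The median SD among knockout clones was 0.412 over the members and 0.166 over all genes, and among wild type clones 0.288 and 0.149. Fhl2 itself read 6.01, 6.44 and 6.57 in the knockout clones, against 9.88, 8.57 and 9.64 in the wild type clones, a fall of 3.02 (SE 0.35, adjusted p = 0.00400). The sources used here do not say whether its probe set reads the deleted stretch. Its knockout values lay above the median of gene means, 5.92, and FHL2 protein was not measured. Knockout clone H differed from the other knockout clones across genes, with a correlation of 0.964 with clone E and 0.968 with clone J, where E and J reached 0.991. Results that rest on this clone are therefore given with and without it. Clone H was singled out from these same arrays, and fits without it rest on knockout clones E and J alone, which resemble each other most. Their smaller SEs and added calls follow in part from that choice. They describe clones E and J and are not independent support for a difference between genotypes. All 11 fibroblast markers had means above the median of gene means, among them Col1a1, a chain of type I collagen, at 13.34, 13.56 and 13.37 in knockout clones, against 13.04, 13.28 and 13.37 in wild type clones. They were not alike between genotypes. Of the 11, 3 rose (Lum by 4.81, Dcn by 2.04 and Pdgfra by 1.76) and 2 fell (Thy1 by 1.34 and Pdgfrb by 0.64). That was 45.5% of the list, beside 19.0% of all genes and 30.6% of genes with means at or above that median. The call of Dcn was lost without clone H (adjusted p = 0.0514). Blood markers averaged 3.06 to 3.32 in knockout clones, against 3.01 to 3.14 in wild type clones. Of 6 epithelial markers 1 rose, Epcam, by 0.43 (adjusted p = 0.0327), 16.7% of the list beside 19.0% of all genes. The other 5 had means below the median of gene means.

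Of the 40 members, 4 rose, 5 fell and 31 did not pass, so 22.5% passed where 19.0% of all genes did. The 4 that rose, beside 9.04% of all genes, were Crip1, Csrp2, Prickle1 and Limch1. The 5 that fell were Csrp1, Lpp, Wtip, Limk2 and Fblim1, 12.5% of the members beside 10.0% of all genes. The groups did not overlap in 18 members (45.0%), against 38.9% of all genes, with knockout above in 6 (20.7% of all genes) and below in 12 (18.2% of all genes). The median difference was -0.30 over the members and 0.04 over all genes, and 24 of the 40 members lay below 0, beside 7928 of all 18193 genes. Without knockout clone H the counts were larger: 19 of 40 members passed (47.5%), 5 higher and 14 lower (35.0%), beside 26.1% of all genes in either direction and 13.4% lower. All 9 members called with 6 clones were among these 19, and 10 were called only without clone H. The mean over the 6 arrays reached the median of all genes, 5.92, in 32 members, of which 28.1% passed, against 30.6% of all genes at such levels. The groups did not overlap in 53.1% of these 32 members, against 52.8% of all genes at such levels. Differences lay below 0 in 22 of the 32, against 4882 of 9097 genes. Shares at such levels were not computed for the fit without clone H, so its counts are not matched for level.

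**Figure D1:**
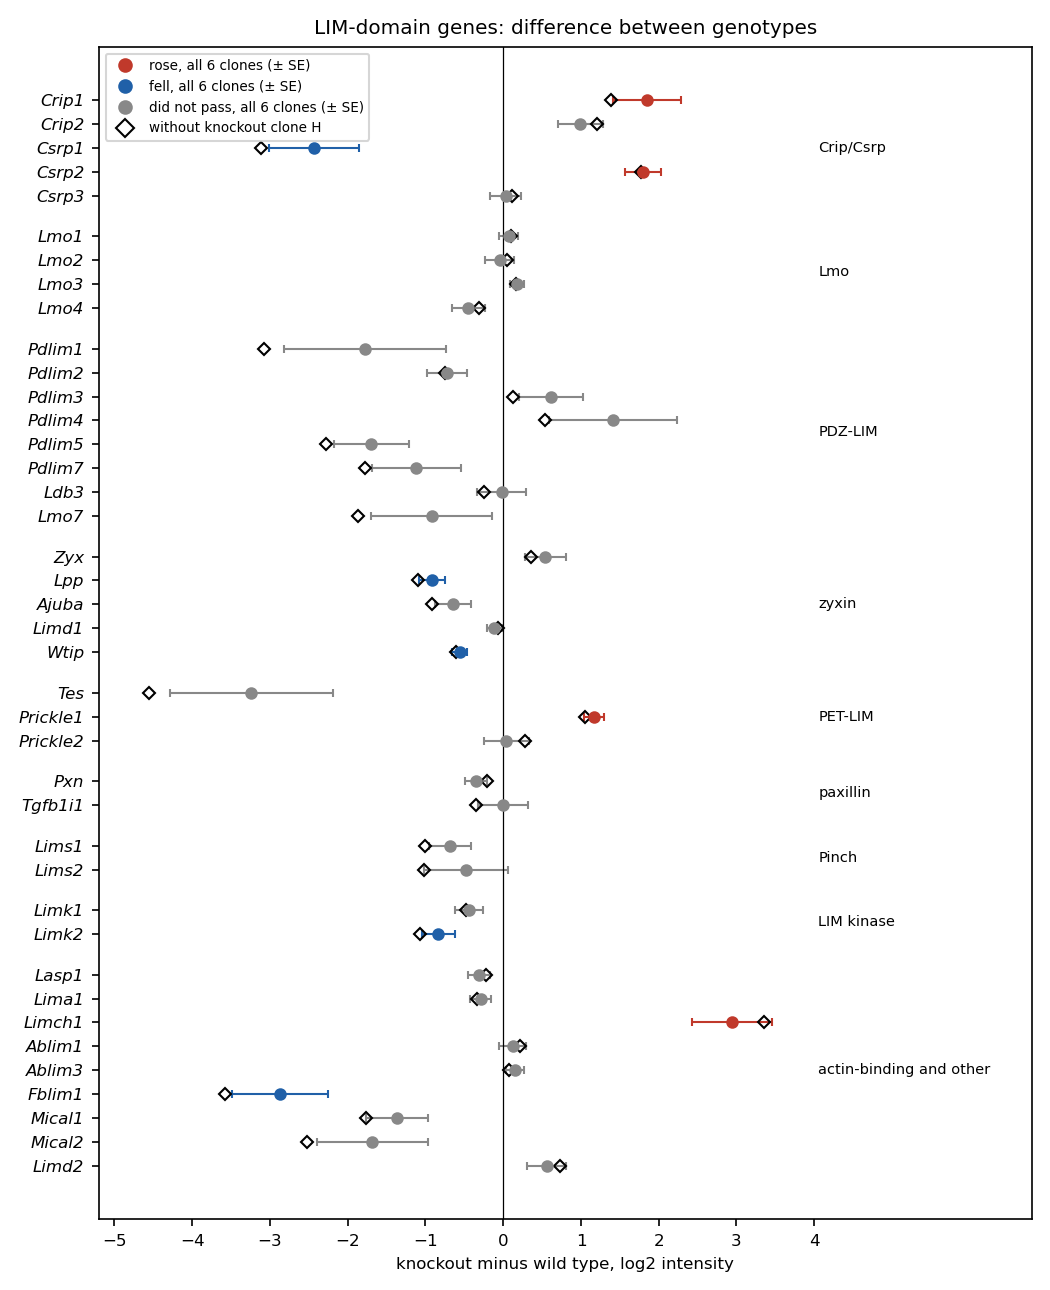
Difference between genotypes for each of the 40 members, grouped by subfamily (horizontal axis: knockout minus wild type, log2 intensity; circles: all 6 clones with the SE of limma; diamonds: the same without knockout clone H). Tes, Pdlim1 and Mical2 have wide errors with all clones, and their diamonds lie at -4.55, -3.07 and -2.52, farther below 0.

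Promoter windows were read to show what the called members carry next to their starts. RefSeq promoters of assembly GRCm38.p6, from 250 bases before to 50 bases after each start, were found for 32 of the 40 members, not for Csrp2, Lmo2, Pdlim2, Limd1, Pxn, Tgfb1i1, Lims2 or Ablim3. An AP-1 site, TGANTCA, the element bound by Fos and Jun, transcription factors that FHL2 is known to bind, stood on either strand in at least 1 window of 6 of these 32 genes, against 8.97% of 27025 genes. Counted by window, 7 of 60 member windows and 7.81% of all 32851 windows held it. A TEAD site, CATTCC, bound by the partners of YAP, stood in 6 of 32 members (18.8%) and 16.6% of all genes. A CArG box, bound by serum response factor, stood in 2 of 32 (6.25%) and 1.81%. By window the TEAD site stood in 7 of 60 for members and 14.7% of all windows, and the CArG box in 3 of 60 and 1.63%. The CArG boxes belonged to Ldb3 and Lima1, neither of which passed. AP-1 sites also stood in windows of Ablim1, Ldb3, Lmo1 and Zyx, and TEAD sites in those of Ablim1, Ajuba and Pdlim3. None of these genes passed with all clones, so the sites were not confined to members that fell. A match is a description of the letters in these windows, and binding was not measured. The upstream 250 bases are printed for the called members that hold an AP-1 or TEAD site, 4 that fell, with the sites in capitals and the rest in lower case, 5′ to 3′ on the strand of the gene. No motif overlapped another. Fblim1 is shown because an AP-1 site (from position -80 relative to the start) and a TEAD site (from -71) lie side by side in it, and its window is chr4:141606053-141606302, minus strand. Wtip holds 4 TEAD sites (chr7:34133269-34133518, minus strand), Limk2 holds 1 AP-1 site (chr11:3409239-3409488, minus strand) and Lpp holds 1 TEAD site (chr16:24721605-24721854, plus strand). Limk2 has 3 windows and Fblim1 and Lpp have 2 each, of which only the window shown holds these motifs.
Fblim1: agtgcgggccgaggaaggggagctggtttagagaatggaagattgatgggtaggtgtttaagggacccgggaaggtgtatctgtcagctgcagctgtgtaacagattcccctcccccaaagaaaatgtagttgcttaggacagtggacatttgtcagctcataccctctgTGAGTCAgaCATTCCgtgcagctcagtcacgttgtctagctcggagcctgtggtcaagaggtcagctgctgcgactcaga
Wtip: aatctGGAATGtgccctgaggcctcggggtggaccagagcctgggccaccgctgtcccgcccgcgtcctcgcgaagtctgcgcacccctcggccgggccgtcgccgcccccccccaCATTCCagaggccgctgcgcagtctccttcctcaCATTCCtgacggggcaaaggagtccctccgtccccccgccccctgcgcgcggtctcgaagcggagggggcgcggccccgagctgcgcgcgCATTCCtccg
Limk2: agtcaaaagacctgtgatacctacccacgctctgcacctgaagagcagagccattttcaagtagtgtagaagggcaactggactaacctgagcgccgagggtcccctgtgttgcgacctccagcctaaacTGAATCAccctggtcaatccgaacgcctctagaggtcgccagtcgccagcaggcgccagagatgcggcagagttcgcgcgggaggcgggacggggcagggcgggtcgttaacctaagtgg
Lpp: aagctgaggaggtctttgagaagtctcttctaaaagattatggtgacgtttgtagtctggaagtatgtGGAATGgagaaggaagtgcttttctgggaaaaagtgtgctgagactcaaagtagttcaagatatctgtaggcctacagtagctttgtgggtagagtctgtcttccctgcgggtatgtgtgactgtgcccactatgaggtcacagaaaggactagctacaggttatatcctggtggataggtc

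The Crip and Csrp proteins, small proteins made of 1 or 2 LIM domains, differed in both directions: 2 rose, 1 fell and 2 did not pass. The share called was 60.0% of these 5 genes, beside 19.0% of all genes. Csrp2, which is known from smooth muscle and binds actin bundles, read 9.61, 9.37 and 8.97 in knockout clones, against 7.72, 7.12 and 7.72 in wild type clones. All knockout clones lay above all wild type clones, and Csrp2 rose by 1.80 (SE 0.23, adjusted p = 0.00522), or 3.48-fold, a call kept without any single clone. Its close relative Csrp1, which binds alpha-actinin and zyxin on stress fibres, ran the other way. It read 7.68, 9.48 and 7.20 in knockout clones, against 10.98, 10.39 and 10.29 in wild type clones. Clones E and J were low and clone H lay between them and wild type, and Csrp1 fell by 2.43 (SE 0.58, adjusted p = 0.0327), or 5.39-fold. Without clone H the fall was 3.11 (SE 0.25, adjusted p = 0.000606). The call was lost without any of the other 5 clones (adjusted p from 0.0779 without wild type clone I to 0.118 without wild type clone E).

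Crip1, named for its abundance in the intestine, read 7.26, 8.54 and 7.06 in knockout clones, against 6.32, 5.49 and 5.49 in wild type clones. It was highest in clone H and rose by 1.85 (SE 0.43, adjusted p = 0.0314). The difference was 1.39 when clone H was left out (0.0123), and leaving out knockout clone E (adjusted p = 0.0598) or any wild type clone (0.0559 for E, 0.0998 for F and 0.0969 for I) ended the call. Crip2, which has 2 LIM domains and is known from heart and vessels, read 7.28, 6.74 and 7.49 in knockout clones, against 6.12, 6.67 and 5.74 in wild type clones. The groups did not overlap, with a difference of 0.99 (SE 0.29, adjusted p = 0.0598) that passed without knockout clone H (1.21, 0.0192) or wild type clone F (1.24, 0.0467). Csrp3, the muscle LIM protein of the sarcomere, read 3.31 to 3.62 in knockout clones, against 3.21 to 3.88 in wild type clones, and the groups overlapped.

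**Figure D2:**
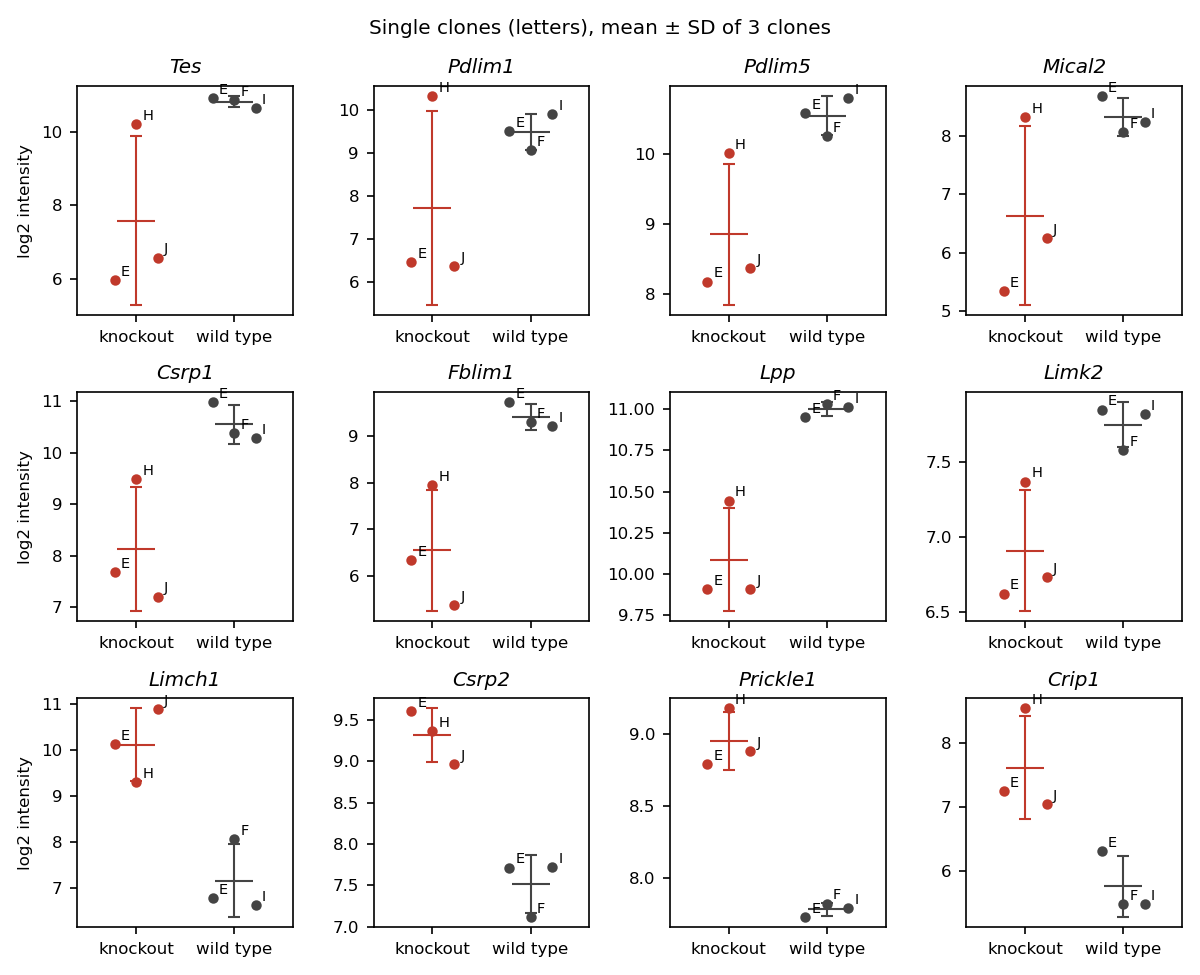
Log2 intensity (vertical axes, 1 scale for each panel) of 12 members in knockout clones (left, red) and wild type clones (right, grey); letters name the clones and bars give the mean ± SD of 3 clones. In Tes, Pdlim1, Pdlim5 and Mical2 knockout clones E and J lie low while clone H lies at or near the wild type clones, and in Csrp2 and Prickle1 all 3 knockout clones lie above.

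No PDZ-LIM gene passed with all 6 clones, yet 4 of the 8 passed without clone H, all lower, beside 13.4% of all genes lower in that fit. These proteins bind alpha-actinin through a PDZ domain and kinases or other partners through their LIM domains; Lmo7 was placed here because it carries a PDZ domain, whatever its name. Pdlim1, known as Elfin or CLP36, read 6.46, 10.31 and 6.37 in knockout clones, against 9.50, 9.06 and 9.89 in wild type clones. Clone H was the highest of all 6 while E and J were the lowest, and the difference was -1.77 (SE 1.04, adjusted p = 0.295) with clone H and -3.07 (SE 0.24, adjusted p = 0.000540) without it.

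Pdlim5, or ENH, which binds protein kinase C, read 8.17, 10.01 and 8.36 in knockout clones, against 10.58, 10.25 and 10.80 in wild type clones. Knockout lay below wild type in every clone, with a difference of -1.70 (SE 0.48, adjusted p = 0.0555), or -2.28 without clone H (adjusted p = 0.000598). Its 7 probe sets gave differences from -2.14 to -1.43. Pdlim7, or Enigma, read 8.52, 10.64 and 8.78 in knockout clones, against 10.55, 9.90 and 10.84 in wild type clones, with -1.12 (adjusted p = 0.233) and, without clone H, -1.78 (adjusted p = 0.00534). A second Pdlim7 probe set, with a lower mean, differed by -2.08 and passed when every probe set was tested (adjusted p = 0.0194). Lmo7, which links nectins and cadherins at cell junctions, read 5.34, 8.46 and 5.93 in knockout clones, against 7.58, 7.11 and 7.81 in wild type clones. As in Pdlim1, clone H exceeded every wild type clone, and the difference was -0.92 with it (adjusted p = 0.468) and -1.86 without it (adjusted p = 0.00369).

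The other 4 PDZ-LIM genes did not pass with or without clone H. Pdlim2, a nuclear ubiquitin ligase that limits NF-kB, lay lower in all knockout clones (8.43, 8.76 and 8.99, against 9.19, 9.20 and 9.97; -0.73, adjusted p = 0.0999). Pdlim4, or RIL, read 4.45, 7.62 and 5.51 in knockout clones and 4.61, 3.57 and 5.16 in wild type clones, and Pdlim3, the actinin-associated LIM protein of muscle, 3.46, 4.97 and 3.54 against 3.21, 3.30 and 3.62. In both, clone H was the highest clone, and the differences were 1.41 for Pdlim4 (adjusted p = 0.291) and 0.61 for Pdlim3 (0.354) with it, and 0.53 and 0.12 without it. Ldb3, or Cypher, a Z-disc protein of striated muscle, read 3.81 to 4.84 in knockout clones, against 3.93 to 4.63 in wild type clones.

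Testin had the largest difference of the 40 members. Tes encodes a focal adhesion protein that binds zyxin and Mena, and read 5.96, 10.21 and 6.58 in knockout clones, against 10.93, 10.88 and 10.65 in wild type clones. Clones E and J lay far below wild type and clone H only a little below. The difference of -3.24 (SE 1.05) did not pass with all clones (adjusted p = 0.0806), and Tes fell by 4.55 without clone H (SE 0.20, adjusted p = 0.000101). Its second probe set gave -3.29. In bulk RNA, fewer cells that express a gene and less RNA per cell cannot be told apart. Prickle1, a planar cell polarity protein with the same PET and LIM domains, read 8.79, 9.18 and 8.88 in knockout clones, against 7.73, 7.82 and 7.79 in wild type clones. It rose by 1.17 (SE 0.13, adjusted p = 0.00332), or 2.25-fold, a call kept without any single clone; with the mean of its 3 probe sets, of which the other 2 read 4.78 and 2.90 on average, the difference was 0.50 (adjusted p = 0.0127). Its relative Prickle2 overlapped between the groups (8.07 to 8.89 in knockout clones, against 8.11 to 8.98 in wild type clones).

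Zyxin family genes, whose proteins shuttle between adhesions and the nucleus, gave 2 falls (40.0%, beside 10.0% of all genes). Of the 5, 4 lay below 0, beside 7928 of all 18193 genes. Lpp, the lipoma preferred partner, read 9.91, 10.45 and 9.91 in knockout clones, against 10.95, 11.03 and 11.01 in wild type clones. It fell by 0.91 (SE 0.17, adjusted p = 0.0143), or 1.88-fold, and by 1.09 without clone H (0.00109); leaving out knockout clone J (0.0535) or a wild type clone, E (0.0538) or F (0.0532), ended the call. All 8 Lpp probe sets lay below 0, from -1.02 to -0.41. Wtip, a podocyte protein that with Ajuba and Limd1 binds the LATS kinases of the Hippo pathway, read 8.38, 8.49 and 8.34 in knockout clones, against 8.90, 9.03 and 8.96 in wild type clones. The clones of each genotype lay close together, and Wtip fell by 0.56 (SE 0.10, adjusted p = 0.0122), and leaving out knockout clone J ended the call (0.0513).

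Ajuba read 7.96, 8.87 and 8.18 in knockout clones, against 9.09, 8.94 and 8.91 in wild type clones, with -0.64 (adjusted p = 0.111), and fell by 0.91 without clone H (0.00398). Limd1, which also takes part in microRNA silencing, differed by -0.11 (SE 0.09, adjusted p = 0.465), and its second probe set by -0.43, which passed when every probe set was tested (adjusted p = 0.0350). Zyx, the zyxin of strained stress fibres and the family member most studied as a force sensor, read 10.40, 11.23 and 10.96 in knockout clones, against 10.72, 10.23 and 10.01 in wild type clones. The groups overlapped, at 0.54 (SE 0.27, adjusted p = 0.213), and Zyx was the only one of the 5 with a difference above 0; its difference from the others was not tested.

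Members at the integrin end of the adhesion did not pass with all clones. Pxn, the scaffold paxillin, lay lower in every knockout clone (9.70, 9.28 and 9.71, against 9.86, 9.93 and 9.94) by a small amount (-0.35, SE 0.14, adjusted p = 0.141). Its relative Tgfb1i1, or Hic-5, induced by TGF-beta, read 9.12, 10.09 and 8.98 in knockout clones, against 9.67, 9.08 and 9.44 in wild type clones, with clone H highest of all. Lims1, or PINCH1, which joins integrin-linked kinase and parvin in one complex, read 9.43, 10.31 and 9.26 in knockout clones, against 10.43, 10.27 and 10.35 in wild type clones. Clone H was level with wild type and the difference was -0.68 (adjusted p = 0.137), while Lims1 fell by 1.01 without clone H (SE 0.12, adjusted p = 0.00211). Lims2, or PINCH2, read 5.17, 7.12 and 5.86 in knockout clones, against 7.24, 6.20 and 6.14 in wild type clones, and did not pass with or without clone H (-1.02 without it, adjusted p = 0.100).

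Both LIM kinases, which phosphorylate and switch off cofilin, lay below 0. Limk2 read 6.62, 7.37 and 6.74 in knockout clones, against 7.85, 7.58 and 7.82 in wild type clones. It fell by 0.84 (SE 0.21, adjusted p = 0.0393), or 1.79-fold, and a second probe set gave -1.25; without clone H it fell by 1.07 (0.00246). The call was lost without any of the other 5 clones (adjusted p from 0.0775 without wild type clone F to 0.130 without wild type clone E). Limk1 read 7.08, 7.17 and 6.99 in knockout clones, against 7.67, 7.74 and 7.14 in wild type clones. Wild type clone I overlapped the knockout clones, and the difference of -0.44 (adjusted p = 0.140) passed only without that clone (-0.63, adjusted p = 0.0325). Without probe sets open to cross-hybridization only the lowest probe set of each kinase was left, and these gave 0.19 for Limk2 and 0.23 for Limk1, so that both signs changed. Of 14 measured genes around LIM kinase and cofilin, 3 fell and 1 rose (28.6%, beside 19.0% of all genes), with a median of -0.39. Cfl2, the muscle cofilin, fell by 0.97 (SE 0.21, adjusted p = 0.0255), Rock1, a kinase that activates LIM kinases, by 0.98 (SE 0.22, adjusted p = 0.0284), and Pak2, another activating kinase, by 0.61 (SE 0.16, adjusted p = 0.0474). Ssh2, a slingshot phosphatase that reactivates cofilin, rose by 0.65 (SE 0.17, adjusted p = 0.0466). Without clone H, 8 of the 14 were lower and 2 higher, beside 13.4% of all genes lower and 26.1% in either direction.

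Among the actin-binding members, Fblim1 and Limch1 differed most, in opposite directions. Fblim1 encodes migfilin, which binds filamin and kindlin at adhesions, and read 6.33, 7.95 and 5.36 in knockout clones, against 9.73, 9.30 and 9.22 in wild type clones. All knockout clones lay below wild type, and Fblim1 fell by 2.87 (SE 0.61, adjusted p = 0.0236), or 7.32-fold, and by 3.57 without clone H (0.000698). Leaving out knockout clone E (0.0718) or any wild type clone (0.0909 for E, 0.0708 for F and 0.0640 for I) ended the call. Limch1, shown in human cells to activate non-muscle myosin II, read 10.13, 9.31 and 10.88 in knockout clones, against 6.79, 8.06 and 6.63 in wild type clones. It rose by 2.95 (SE 0.51, adjusted p = 0.0124), or 7.71-fold, a call lost only without wild type clone E (0.0568). Probe sets of Limch1 other than the one at the low end of the scale gave 2.23 to 3.24.

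Mical1 and Mical2 encode enzymes that take actin filaments apart by oxidising actin, and Mical2 also acts in the nucleus on serum response factor. Mical2 read 5.34, 8.32 and 6.25 in knockout clones, against 8.67, 8.06 and 8.23 in wild type clones. Clone H was level with wild type, and the difference was -1.68 with it (SE 0.71, adjusted p = 0.158) and -2.52 without it (SE 0.30, adjusted p = 0.00221). Mical1 read 5.68, 7.21 and 6.40 in knockout clones, against 8.14, 7.85 and 7.40 in wild type clones, with no overlap, at -1.37 (adjusted p = 0.0591) or -1.76 without clone H (0.00635). The other actin-binding members did not pass with or without clone H. Lasp1, a LIM and SH3 protein of the leading edge, and Lima1, or EPLIN, which cross-links filaments, differed by -0.31 and -0.29, Ablim1 by 0.12 and Ablim3 by 0.15. A probe set of Ablim1 with a lower mean differed by 0.72 and passed when every probe set was tested (adjusted p = 0.0230). Limd2, a small LIM protein that in human cells binds integrin-linked kinase, differed by 0.56 (adjusted p = 0.174), or 0.74 without clone H (0.0625).

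Lmo adaptors, which bridge Ldb1 and DNA-binding factors in the nucleus, did not pass with or without clone H. Lmo4, the broadly expressed member, read 9.73, 9.07 and 9.21 in knockout clones, against 9.59, 10.06 and 9.69 in wild type clones (-0.45, SE 0.21, adjusted p = 0.199). Lmo1, Lmo2 and Lmo3, known from the nervous system and blood, read 2.99 to 4.12 in knockout clones, against 2.85 to 3.90 in wild type clones, below the median of gene means in every clone. Of 13 measured partners of the Lmo complex, 4 rose and 2 fell (46.2%, beside 19.0%), and without clone H 4 were higher and 3 lower, beside 26.1% of all genes. Deaf1, a DNA-binding partner of Lmo4, rose by 1.42 (SE 0.17, adjusted p = 0.00396), the zinc-finger factor Gata2 by 0.89 (SE 0.15, adjusted p = 0.0105) and Ssbp4, of the proteins that stabilise Ldb1, by 0.77 (SE 0.18, adjusted p = 0.0296). Gata6 read 5.24, 7.09 and 6.93 in knockout clones, against 8.94, 9.78 and 8.33 in wild type clones, and fell by 2.60 (SE 0.58, adjusted p = 0.0265).

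**Figure D3:**
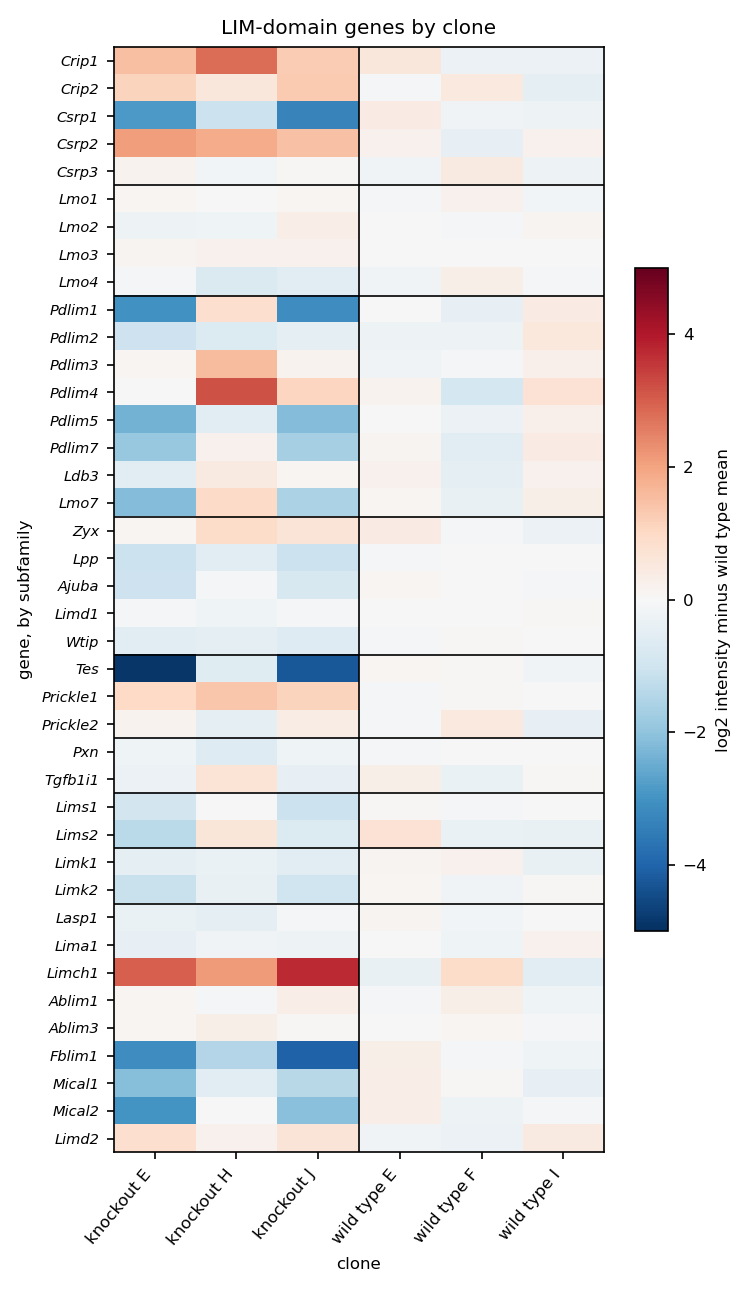
Each member (rows, by subfamily) in each clone (columns), coloured by log2 intensity minus the wild type mean. Blue blocks for Pdlim1, Pdlim5, Pdlim7, Lmo7, Tes, Fblim1 and Mical2 stand in knockout clones E and J and are paler or absent in clone H.

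The members that separated clone H from clones E and J were mostly those that lay low in E and J. Of the 13 members whose mean in E and J lay at least 2-fold below the wild type mean, clone H lay nearer to wild type in 12 (92.3%), the exception being Lpp; over all genes this was so in 453 of 1248 (36.3%). The 12 were Csrp1, Pdlim1, Pdlim5, Pdlim7, Lmo7, Tes, Lims1, Lims2, Limk2, Fblim1, Mical1 and Mical2. Of the 5 members at least 2-fold above wild type in E and J, clone H lay nearer to wild type in 1, Crip2 (20.0%), against 396 of 1075 genes (36.8%). In 9 of 40 members the SD among knockout clones exceeded 1, beside 591 of 18193 genes. Clone H was the farthest clone in all 9, as in 492 of those 591 genes (83.2%). Among wild type clones 0 members reached such an SD, beside 103 of 18193 genes.

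Most of the 7 smooth muscle markers moved with these members. Tagln, the actin-binding protein SM22, read 8.14, 12.76 and 9.01 in knockout clones, against 13.25, 12.64 and 12.88 in wild type clones, and Cnn1, calponin, 5.58, 9.66 and 5.09, against 11.23, 9.54 and 10.02. Both were low in clones E and J and at the wild type level in clone H. The mean over the 7 markers was 6.62, 9.18 and 6.60 in knockout clones, against 10.20, 9.19 and 9.05 in wild type clones, and their part in the differences of the LIM genes was not tested. With all clones 1 of the 7 fell (Actg2, a smooth muscle actin, by 4.64, adjusted p = 0.0311), 14.3% beside 10.0% of all genes. Actg2 read 3.66, 6.61 and 4.36 in knockout clones, against 11.23, 9.71 and 7.62 in wild type clones, so here clone H lay below every wild type clone. The wild type clones of Actg2 had an SD of 1.81. Without clone H 5 of the 7 markers were lower and 0 higher, beside 13.4% of all genes lower. The other 2, Myh11 (smooth muscle myosin) and Smtn (smoothelin), did not pass with or without clone H (-0.70 and 0.24 without it), and clone H was the highest clone in Myh11 and the lowest in Smtn. Lmod1, leiomodin, differed by -1.73 (adjusted p = 0.114), or -2.38 without clone H (0.00933). The striated muscle markers, 8 in all, gave 0 calls with limma, and the largest of their differences was -0.42, for desmin (Des, adjusted p = 0.428). Their mean ran from 3.90 to 4.04 in knockout clones, against 3.91 to 4.22 in wild type clones. Among the endothelial markers Tek, an angiopoietin receptor, read 8.36, 4.68 and 8.91 in knockout clones, against 3.27, 3.31 and 2.54 in wild type clones. Tek rose by 4.27 (adjusted p = 0.0378), or by 5.59 without clone H. With all clones it was the only 1 of 4 on the list to rise (25.0%, beside 9.04% of all genes). Without clone H Pecam1, an adhesion molecule of endothelium and blood, passed as well, at 0.39 (adjusted p = 0.0495). That made 2 of 4 higher, beside 2304 of 18193 genes in that fit. Pecam1 levels were below the median of gene means, at 3.20 to 3.65 in knockout clones, against 3.14 to 3.32 in wild type clones. Cdh5 and Kdr did not pass with or without clone H (0.46 and -1.02 without it), and clone H was the highest clone in Kdr. Tek too set clones E and J apart from clone H, and its part in the differences of the LIM genes was not tested.

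**Figure D4:**
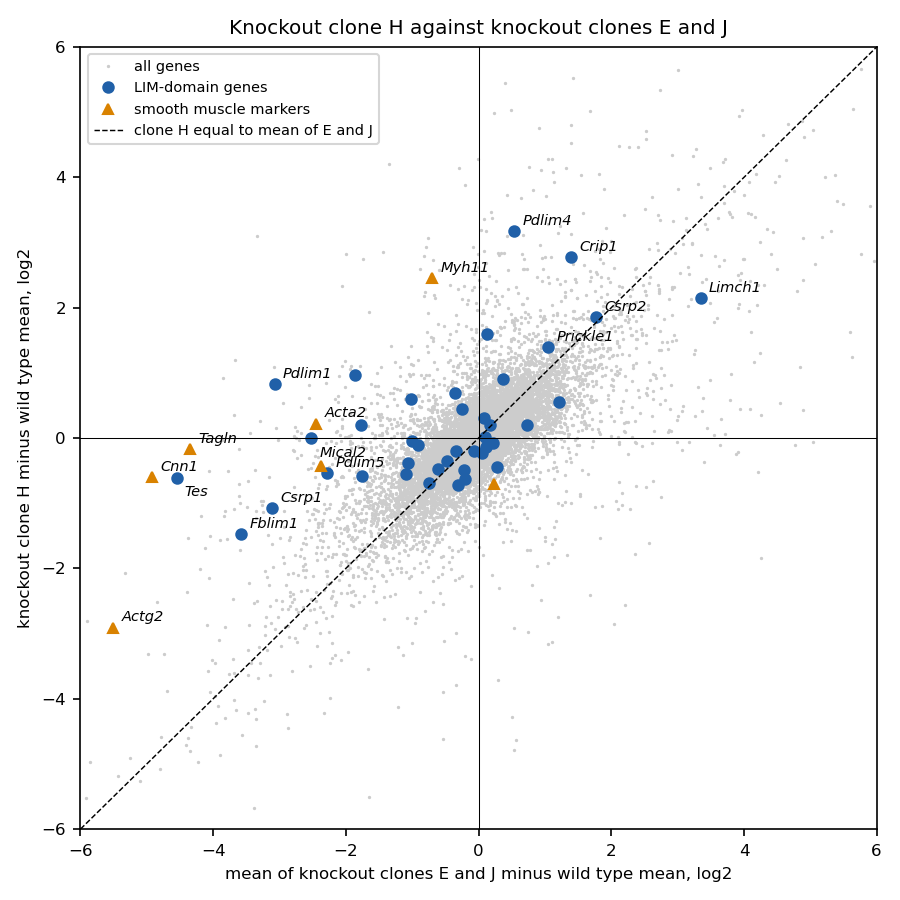
Knockout clone H (vertical axis) against the mean of knockout clones E and J (horizontal axis), both minus the wild type mean on the log2 scale, for all genes (grey; 17 lie outside the axes), the 40 members (blue) and 7 smooth muscle markers (orange). Tes, Pdlim1, Mical2, Tagln, Acta2 and Cnn1 lie far left near the horizontal line at 0, while Csrp2 and Prickle1 lie near the diagonal.

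Adhesion partners of the members were read next. Of 19 measured genes of the Pinch complex and of focal adhesions, 3 fell and 1 rose (21.1%, beside 19.0% of all genes), with a median of -0.31 and 15 below 0. Ctnna1, alpha-catenin, read 10.27, 9.75 and 10.10 in knockout clones, against 11.04, 11.19 and 10.94 in wild type clones, and fell by 1.02 (SE 0.16, adjusted p = 0.00887). Talin-1 (Tln1), which couples integrins to actin, fell by 0.59 (SE 0.15, adjusted p = 0.0389) and Ptpn12, a phosphatase that binds paxillin, by 0.72 (SE 0.17, adjusted p = 0.0328). Evl, a relative of VASP that promotes actin assembly, rose by 0.75 (SE 0.16, adjusted p = 0.0231). Without clone H, 8 of the 19 were lower and 2 higher, beside the same 13.4% and 26.1% of all genes.

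Probe sets that read the same member mostly agreed in sign. More than 1 probe set read 23 members, and 54 of the 60 further probe sets had the sign of the one used. Of the 39 further probe sets with a mean of at least 5.92, 38 did, the exception being 1 of Lasp1. No further probe set passed in the opposite direction. For the called members all 10 further probe sets at such levels had the same sign, as did 15 of 16 at any level, the exception being one of Limk2 at the low end of the scale.

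**Figure D5:**
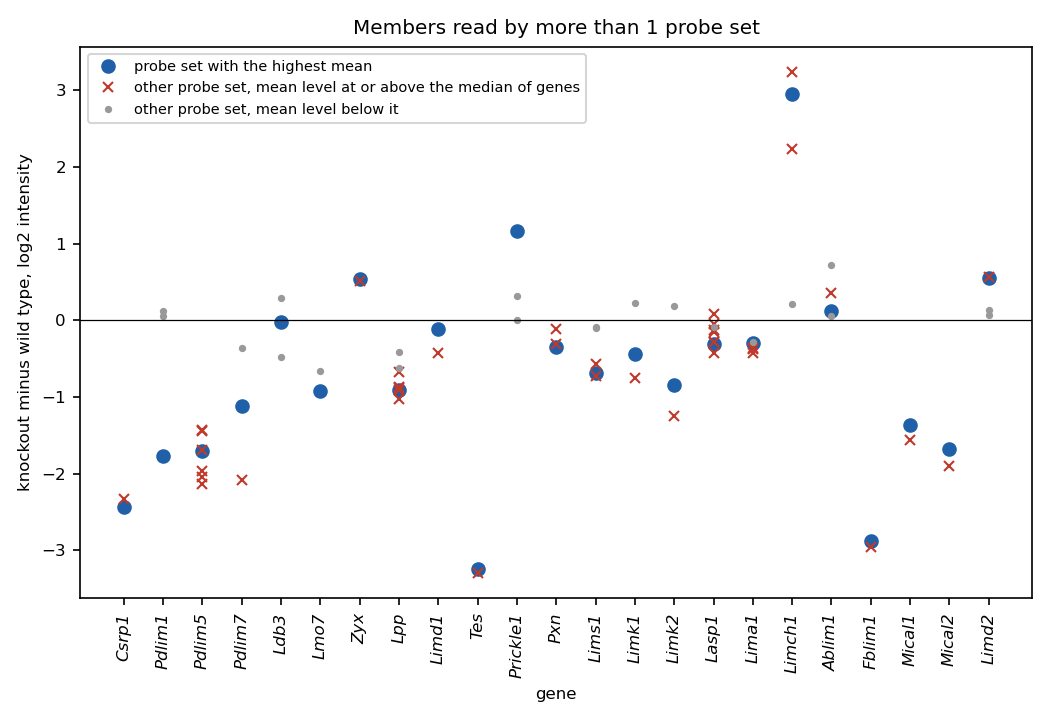
Difference between genotypes (vertical axis, knockout minus wild type, log2 intensity) for every probe set of the 23 members read by more than 1 (horizontal axis). Filled circles are the probe sets used, crosses the others with a mean of at least 5.92, and dots those with a lower mean; the 7 probe sets of Pdlim5 lie between -2.14 and -1.43.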

How the data were processed

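RNA from 6 MEF clones was extracted with a column kit, labelled with biotin by a one-cycle 3' protocol and hybridised to Affymetrix arrays, per the labels' protocols. The deposited values were log2 intensities per probe set that the authors had made with RMA, named in the submitters' processing notes; no version or settings are stated there. Values of wild type clone E carry more decimals than those of the other clones, and whether that array was processed apart is not stated. Depth does not apply to arrays.

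Of 45101 probe sets, 64 controls, 932 with several symbols and 9160 without a symbol were left out. The other 34945 gave 18193 genes, 1 probe set each, the brightest on average. Names came from the platform annotation. Genotypes were compared by limma 3.58.1 (R 4.3.3; lmFit and eBayes on genotype alone), with p adjusted by Benjamini-Hochberg over all genes at 0.05, and the fit was checked on simulated data. No set test was run. Figures used matplotlib 3.10.9 in Python 3.11.15.

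The members, subfamilies, partner and marker lists were chosen with earlier results of these data known. By rule, every member was named, and in each partner list the 4 genes with the smallest p. AP-1 and TEAD sites were chosen after the design was set. Protein sequences were not used here. Alternatives were a trended robust prior, renewed quantile normalization, median centring, a level filter, averaged or single probe sets, no probe sets open to cross-hybridization, array weights, a 2-fold threshold and each clone left out. Some genes of the partner lists, among them Ptk2, Rock2 and Pak1, were not analysed here.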

Additional observations from a re-analysis of the deposited data

How the results depend on the processing

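Counts of called members depended on the clones more than on the other settings. With each clone left out, 2 to 5 members were called higher, 1 to 14 lower, and 1661 to 4750 genes in all; the lower end (2 and 1 members) came without wild type clone E and the upper end without knockout clone H. Without knockout clone J, 4 were higher and 1 lower (1733 genes in all), without knockout clone E 3 and 2 (2079), without wild type clone F 4 and 1 (1910) and without wild type clone I 3 and 3 (2145). Array weights, in which clone H had 0.385 and the others 1.07 to 1.56, gave 13 lower members. The 2-fold threshold left 2 lower members and 1495 genes. Testing every probe set gave 7 higher and 14 lower among 100 member probe sets and 5876 among 34945; without probe sets open to cross-hybridization 3 of 34 members were lower. Crip2, Pdlim5 and Mical1 passed among genes at or above the median level (adjusted p = 0.0412, 0.0370 and 0.0397), and Pdlim5 after median centring (0.0495). Fhl2 passed in every fit that read it, from -3.42 to -2.77 with clones left out.

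Changes of sign concerned differences that had not passed, apart from Limk2. Without probe sets open to cross-hybridization Limk2 read 0.19 and Limk1 0.23, on probe sets below the median of gene means. Csrp3 (0.03) moved to -0.025 after renewed quantile normalization and to -0.020 after median centring, and Prickle2 (0.04) to -0.0094 after centring. Tgfb1i1 (0.00052) moved to -0.050 after centring and to -0.22 with array weights, and Lmo2 (-0.04) to 0.044 with weights. With clones left out, Csrp3 ran from -0.091 to 0.24, Lmo2 from -0.24 to 0.058, Ldb3 from -0.25 to 0.26, Prickle2 from -0.16 to 0.28 and Tgfb1i1 from -0.35 to 0.21. The cause was not tested. No paired analysis was possible because the genotypes share only the clone letter E.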

Other observations

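LIM proteins outside the 40 members were read as well. Of 11 measured relatives, 3 fell and 0 rose (27.3%, beside 19.0% of all genes), and without clone H 3 were lower and 2 higher, beside 26.1% of all genes. The 3 were relatives of Mical1 and Mical2. Mical3 read 5.71, 5.28 and 5.41 in knockout clones, against 6.59, 6.66 and 6.44 in wild type clones, and fell by 1.10 (SE 0.14, adjusted p = 0.00535). Micall1, which acts in endosome recycling, read 7.64, 8.20 and 7.58, against 9.27, 8.82 and 9.27, and fell by 1.31 (SE 0.21, adjusted p = 0.00972), and Micall2 fell by 1.18 (SE 0.32, adjusted p = 0.0468). In all 3 the knockout clones, clone H among them, lay below the wild type clones. Trip6, a zyxin relative, differed by -0.45 (adjusted p = 0.0615). The 2 higher without clone H, singled out after their values were seen, were Lmcd1 and Zfp185. Lmcd1 read 7.38, 3.87 and 7.37 in knockout clones, against 3.94, 3.41 and 4.12 in wild type clones, with 2.38 (adjusted p = 0.132) and, without clone H, 3.55 (0.000270), and Zfp185 differed by 0.69 (0.0750) and, without clone H, by 0.90 (0.0107).

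LIM homeodomain factors, which pattern limbs, gonads and neurons, gave 1 call among 12 measured genes (8.33%, beside 19.0% of all genes). Of the 12, 11 had means below the median of gene means. Lhx9 read 3.82, 3.32 and 5.56 in knockout clones, against 8.46, 8.18 and 7.49 in wild type clones, and fell by 3.81 (SE 0.59, adjusted p = 0.00862), or by 3.35 without clone H. The other 11 differed by no more than 0.29 in either direction, with Lhx4 at 0.29 (adjusted p = 0.112), Lmx1b at 0.19 (0.187) and Lhx6 at 0.25 (0.478) next by p.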
